A study of Mus musculus with 12 samples.

Results

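Expression of 10 genes of lymphoid-primed progenitors was followed in 12 RNA sequencing libraries of sorted mouse LSK cells (Lin- Sca1+ cKit+), a bone marrow fraction of stem cells and early multipotent cells. The genes were the cytokine receptors Flt3 and Il7r, the antigen receptor recombination genes Dntt, Rag1 and Rag2, the cytokine subunit gene Il12a, the transcription cofactor gene Dach1, and the leukocyte genes Cd52, Ly86 and Lsp1. They were chosen by symbol as receptors, recombination genes and markers of these progenitors, with earlier results of these data known. All 10 were found among the 39017 genes counted, and all 10 passed the filter on low counts that left 16024 genes for testing. The study varied N1IC, the intracellular and constitutively active part of the receptor Notch1, and Tcf7, the gene of the transcription factor TCF-1.

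The libraries fell into 4 groups of 3, all on a mixed background of C57BL/6J and Sv/129 and all from mice injected with poly(I:C) at 2 ug per g of body weight. The mice labelled NICD_TCFKO carried R26 N1IC lox/+ together with Tcf7 lox/lox and Mx1Cre. Those labelled NICD_TCFWT carried R26 N1IC lox/+ with Mx1Cre, and those labelled NOTCHWT_TCFKO carried Tcf7 lox/lox with Mx1Cre. Those labelled NOTCHWT_TCFWT were wild type, with no Cre listed. Mx1Cre is driven by an interferon-responsive promoter that poly(I:C) switches on, in blood cells and in other tissues. Cells of both NICD groups were also sorted as CD45.2+ eGFP+, so that this gate and the N1IC label cannot be told apart. Age is not given. The labels do not state that replicates came from different animals, and libraries of both sexes within the groups NICD_TCFKO, NICD_TCFWT and NOTCHWT_TCFKO show that those groups were not each from 1 animal. For the NOTCHWT_TCFWT libraries the spread behind a p-value may be technical.

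Multipotent progenitors that keep lymphoid potential carry high surface levels of the tyrosine kinase receptor Flt3, and begin to transcribe lymphoid genes at low levels before any lineage is fixed. Il7r, the receptor chain for interleukin 7, then marks lymphoid progenitors. Rag1 and Rag2 form the recombinase that cuts antigen receptor genes, and Dntt, the terminal transferase, adds nucleotides at the cut ends. In the thymus, Notch1 signalling directs progenitors to the T lineage, and TCF-1 is a factor of that programme.

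Expression is given as normalised read count in CPM, counts scaled to the library size after TMM adjustment, with values in the order of replicates 1, 2 and 3 and group means ± SD (n = 3). Changes are log2 fold changes ± SE from edgeR's quasi-likelihood test, with Benjamini-Hochberg adjustment over all 16024 genes and a threshold of 0.05. Groups without overlap of libraries are common, since this held for 25.9% to 44.2% of all genes tested, by pair of groups. Library totals ranged from 30453271 to 43790674 counts, so that 3 counts, the limit that a count of 0 allows, correspond to 0.07 to 0.0992 CPM. Such limits cover counting error only. The genes named by the labels went against them in part. Tcf7 averaged 603 ± 300 CPM in the libraries labelled NICD_TCFKO, 5.50 ± 1.11 CPM in those labelled NICD_TCFWT, 1.28 ± 1.31 CPM in those labelled NOTCHWT_TCFKO and 14.8 ± 4.54 CPM in those labelled NOTCHWT_TCFWT. Notch1 averaged 774 ± 160, 180.04 ± 19.9, 149 ± 46.7 and 571 ± 44.4 CPM in the same order of groups. Dtx1, a known target of Notch signalling, averaged 121 ± 51.3, 0.124 ± 0.0602, 0.208 ± 0.189 and 85.4 ± 5.67 CPM in that order. Its level was thus lower in the libraries labelled NICD_TCFWT than in those labelled NOTCHWT_TCFWT (-9.39 ± 0.57, adjusted p = 8.91e-06), against the N1IC label. Every direction reported here is therefore one between libraries so labelled. Ly6a and Kit, the genes of the gate antigens Sca1 and cKit, were present in all 12 libraries. Together with Ptprc, Cd34, Slamf1 and Cd48 (6 genes) they summed to 2020 to 2858 CPM. Ly6a alone averaged 101.7, 73.1, 37.5 and 123.1 CPM in the order of groups given above, and Kit 644, 787, 812 and 789 CPM. The library NOTCHWT_TCFKO 1 held both Xist and Y-linked transcripts. All 3 libraries labelled NOTCHWT_TCFWT held Xist (3546.6 to 4603.1 CPM), with 4 Y-linked genes summing to 0 to 0.0865 CPM. Every other group included Y-linked transcripts, so that sex was not balanced between the NOTCHWT_TCFWT libraries and the others.

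The 10 genes did not move as a block. Flt3, Il12a and Dach1 were highest in the libraries labelled NICD_TCFWT and NOTCHWT_TCFKO and lower in those labelled NICD_TCFKO and NOTCHWT_TCFWT. Rag1 and Rag2 were highest in those labelled NICD_TCFKO. Il7r, Cd52, Ly86 and Lsp1 had their highest means in those labelled NICD_TCFKO and their lowest in those labelled NOTCHWT_TCFWT, and Dntt was low in the last group alone. Per kilobase of exon, Dntt had the highest level of the 10 in 3 groups, with 62.3 CPM per kb in the libraries labelled NICD_TCFKO, 105.8 CPM per kb in those labelled NICD_TCFWT and 137.5 CPM per kb in those labelled NOTCHWT_TCFKO. In those labelled NOTCHWT_TCFWT it stood at 3.29 CPM per kb, rank 6 of 10, and Lsp1 was highest there with 20.6 CPM per kb. The order of the 4 group means was the same for each of the 10 genes with raw library sizes and with the log2 values deposited by the authors.

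**Figure D1:**
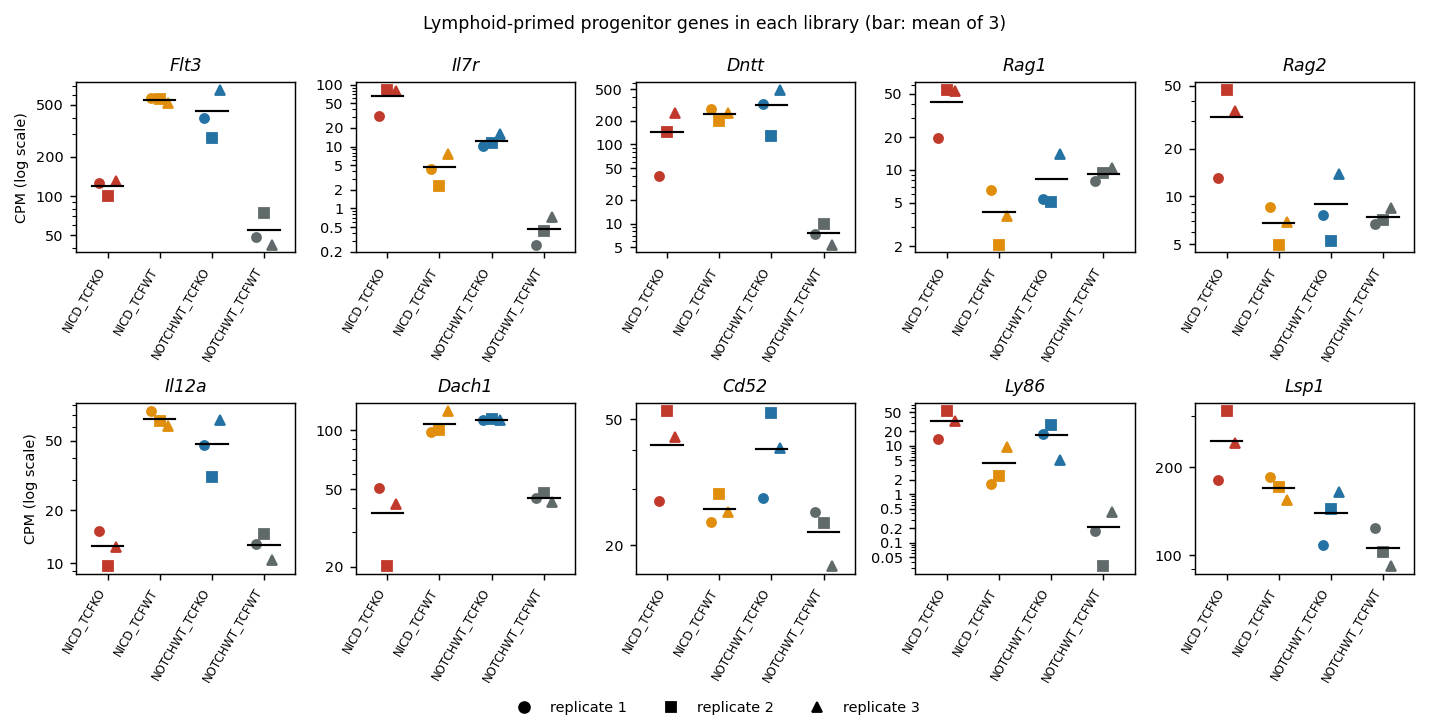
CPM on a log axis for each of the 10 genes in each of the 12 libraries, by group; symbols mark replicates 1 to 3 and bars the mean of 3. Flt3, Il12a and Dach1 stand highest in the libraries labelled NICD_TCFWT and NOTCHWT_TCFKO, Rag1 and Rag2 in those labelled NICD_TCFKO, and Il7r and Ly86 lie under 1 CPM in all 3 libraries labelled NOTCHWT_TCFWT.

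Flt3 (ENSMUSG00000042817, GRCm38 chromosome 5, 147330741 to 147400489, minus strand) is the receptor for Flt3 ligand. It stood at 127, 99.4 and 131 CPM in the libraries labelled NICD_TCFKO and at 569.6, 559 and 515 CPM in those labelled NICD_TCFWT. It stood at 400.3, 279.8 and 656 CPM in those labelled NOTCHWT_TCFKO and at 48.6, 73.9 and 42.3 CPM in those labelled NOTCHWT_TCFWT. The libraries of the NICD_TCFWT and NOTCHWT_TCFKO groups overlapped with each other and with no library of the other groups. Flt3 was higher in the libraries labelled NICD_TCFWT than in those labelled NOTCHWT_TCFWT (log2 fold change 3.32 ± 0.32, adjusted p = 0.000137), and higher in those labelled NOTCHWT_TCFKO than in those labelled NOTCHWT_TCFWT (3.02 ± 0.31, adjusted p = 0.000164). These comparisons share the NOTCHWT_TCFWT libraries. It was lower in the libraries labelled NICD_TCFKO than in those labelled NICD_TCFWT (-2.20 ± 0.30, adjusted p = 0.00199) and than in those labelled NOTCHWT_TCFKO (-1.90 ± 0.30, adjusted p = 0.00254). The difference between the libraries labelled NICD_TCFKO and those labelled NOTCHWT_TCFWT, 1.12 ± 0.29, missed the threshold (adjusted p = 0.0523). No libraries overlapped, as for 25.9% of all genes tested. That difference passed in DESeq2 (adjusted p = 0.000947), in limma-voom (adjusted p = 0.0447), with a filter of 1 CPM in 3 libraries (adjusted p = 0.0492), and without any of NOTCHWT_TCFWT 2, NOTCHWT_TCFKO 2 or NOTCHWT_TCFKO 3 (adjusted p = 0.0192 to 0.0353).

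Il7r (ENSMUSG00000003882, chromosome 15, 9505788 to 9530176, minus strand) followed another order. It stood at 31.7, 83.4 and 78.6 CPM in the libraries labelled NICD_TCFKO and at 4.37, 2.29 and 7.63 CPM in those labelled NICD_TCFWT. It stood at 10.3, 11.3 and 15.9 CPM in those labelled NOTCHWT_TCFKO and at 0.26, 0.43 and 0.724 CPM in those labelled NOTCHWT_TCFWT, where it had 9, 13 and 31 counts. The 4 groups held separate ranges with no overlap. It was higher in the libraries labelled NICD_TCFKO than in those labelled NICD_TCFWT (3.76 ± 0.53, adjusted p = 0.00215), NOTCHWT_TCFKO (2.37 ± 0.49, adjusted p = 0.0105) and NOTCHWT_TCFWT (7.06 ± 0.64, adjusted p = 0.00043). It was also higher in the libraries labelled NICD_TCFWT (3.30 ± 0.57, adjusted p = 0.00336) and NOTCHWT_TCFKO (4.70 ± 0.59, adjusted p = 0.000501) than in those labelled NOTCHWT_TCFWT. In limma-voom the first of these calls was lost (adjusted p = 0.128). Between the libraries labelled NOTCHWT_TCFKO and those labelled NICD_TCFWT the difference of 1.39 ± 0.49 missed the threshold (adjusted p = 0.145), and passed in DESeq2 (adjusted p = 0.0241).

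Dntt (ENSMUSG00000025014, chromosome 19, 41029275 to 41059525, plus strand) was scarce in the libraries labelled NOTCHWT_TCFWT and abundant in the other groups. It stood at 39.5, 142 and 246 CPM in the libraries labelled NICD_TCFKO and at 276, 199 and 252 CPM in those labelled NICD_TCFWT. It stood at 327, 126 and 492 CPM in those labelled NOTCHWT_TCFKO and at 7.41, 9.78 and 5.39 CPM in those labelled NOTCHWT_TCFWT. The libraries labelled NOTCHWT_TCFWT lay below all the others, and the other 3 groups overlapped. Dntt was higher than in the libraries labelled NOTCHWT_TCFWT by 4.25 ± 0.72 in those labelled NICD_TCFKO (adjusted p = 0.0117), by 5.02 ± 0.74 in those labelled NICD_TCFWT (adjusted p = 0.00201) and by 5.39 ± 0.76 in those labelled NOTCHWT_TCFKO (adjusted p = 0.00132). The first of these was lost without NOTCHWT_TCFWT 1 or 3 (adjusted p = 0.0548 and 0.0569), in limma-voom (adjusted p = 0.0594) and with only these groups fitted (adjusted p = 0.0534). Within the libraries labelled NICD_TCFKO the highest was 6.23 times the lowest, the widest range among the 10 genes in any group apart from Ly86 in those labelled NOTCHWT_TCFWT.

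Rag1 (ENSMUSG00000061311, chromosome 2, 101638282 to 101649501, minus strand) and Rag2 (ENSMUSG00000032864, chromosome 2, 101624718 to 101632529, plus strand) are neighbours transcribed towards each other, with 5752 bases between them. Their promoter windows from RefSeq (GRCm38.p6, from 250 bases before to 50 after the start, 5′ to 3′ on the gene's strand) are shown because the pair was highest in the same libraries. The Rag1 window is chr2:101649483-101649782 on the minus strand and the Rag2 window is chr2:101624462-101624761 on the plus strand. Capitals mark matches to the motifs TGGGAA (a core shared by RBPJ and Ikaros sites), CAGGTG (an E-box), CTTTGA (TCF and LEF), GAGGAA (ETS) and TGTGGT (RUNX), each searched on both strands.
Rag1: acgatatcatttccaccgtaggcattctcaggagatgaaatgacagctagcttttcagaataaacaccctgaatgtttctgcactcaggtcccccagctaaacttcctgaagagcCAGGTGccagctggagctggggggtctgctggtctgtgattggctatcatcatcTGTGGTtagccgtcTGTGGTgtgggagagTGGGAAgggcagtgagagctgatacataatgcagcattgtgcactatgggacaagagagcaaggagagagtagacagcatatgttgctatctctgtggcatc
Rag2: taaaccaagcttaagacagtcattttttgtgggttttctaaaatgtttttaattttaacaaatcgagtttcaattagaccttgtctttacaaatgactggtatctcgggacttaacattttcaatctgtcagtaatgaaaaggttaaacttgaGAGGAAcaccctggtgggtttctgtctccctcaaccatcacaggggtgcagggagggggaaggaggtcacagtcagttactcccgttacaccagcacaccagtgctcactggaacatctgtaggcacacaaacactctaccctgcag
The Rag1 window holds an E-box at position -135, RUNX matches at -81 and -67, and TGGGAA at -52. The Rag2 window holds GAGGAA at -97. Positions are those of the first letter of a match as printed, counted from the start. Of all 32851 promoters of this length, 25.6% hold TGGGAA, 20.2% CAGGTG, 28.3% GAGGAA and 16.8% TGTGGT, and 5257 hold CTTTGA, with a window counted once for each motif.

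Both Rag genes were highest in the libraries labelled NICD_TCFKO. Rag1 stood at 19.7, 54.7 and 53.0 CPM in these and at 6.57, 2.06 and 3.79 CPM in the libraries labelled NICD_TCFWT. It stood at 5.42, 5.05 and 14.1 CPM in those labelled NOTCHWT_TCFKO and at 7.96, 9.42 and 10.3 CPM in those labelled NOTCHWT_TCFWT. All 3 libraries labelled NICD_TCFKO lay above the other 9 for Rag1. Rag2 stood at 13.1, 47.2 and 34.8 CPM in the libraries labelled NICD_TCFKO and at 8.63, 4.96 and 6.95 CPM in those labelled NICD_TCFWT. It stood at 7.64, 5.26 and 13.9 CPM in those labelled NOTCHWT_TCFKO and at 6.66, 7.14 and 8.40 CPM in those labelled NOTCHWT_TCFWT. For Rag2 the library NICD_TCFKO 1 lay under NOTCHWT_TCFKO 3, the only overlap of that group with another.

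Rag1 was higher in the libraries labelled NICD_TCFKO than in those labelled NICD_TCFWT (3.36 ± 0.57, adjusted p = 0.00587), NOTCHWT_TCFKO (2.38 ± 0.55, adjusted p = 0.0163) and NOTCHWT_TCFWT (2.20 ± 0.55, adjusted p = 0.0427). Rag2 was higher by 2.21 ± 0.47 (adjusted p = 0.0145), 1.82 ± 0.46 (adjusted p = 0.023) and 2.10 ± 0.47 (adjusted p = 0.0276) in the same comparisons. Several of these calls rested on single libraries or on the setting used. Against NICD_TCFWT, that of Rag2 was lost without NICD_TCFKO 2, NICD_TCFWT 2 or NICD_TCFWT 3 (adjusted p = 0.0509 to 0.063). Against NOTCHWT_TCFKO, the call of Rag1 was lost without NICD_TCFKO 2, NOTCHWT_TCFKO 1 or NOTCHWT_TCFKO 2 (adjusted p = 0.0518 to 0.0632) and that of Rag2 without these libraries or NICD_TCFKO 3 (adjusted p = 0.0583 to 0.0805). That of Rag2 was also lost with a covariate for Y-linked transcripts (adjusted p = 0.0676). With only the groups compared, both calls were lost (adjusted p = 0.0651 for Rag1 and 0.109 for Rag2). Against NOTCHWT_TCFWT, the call of Rag1 was lost in 7 and that of Rag2 in 5 of 12 fits without 1 library. For Rag1 these left out any library labelled NOTCHWT_TCFWT, NICD_TCFKO 2 or 3, NICD_TCFWT 3 or NOTCHWT_TCFKO 1 (adjusted p = 0.053 to 0.137). For Rag2 they left out any library labelled NOTCHWT_TCFWT, or NICD_TCFKO 2 or 3 (adjusted p = 0.0775 to 0.103). The call of Rag1 against NOTCHWT_TCFWT was also lost with no filter (adjusted p = 0.0727) and with the replicate number as a block (adjusted p = 0.0656). A covariate for an inferred library sheet lost it too (adjusted p = 0.0557). That of Rag2 was lost in limma-voom and with only the groups compared (adjusted p = 0.0732 and 0.07).

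The ratio of Rag1 to Rag2 counts is given as a description. It was 1.51, 1.16 and 1.52 in the libraries labelled NICD_TCFKO, 0.761, 0.415 and 0.545 in those labelled NICD_TCFWT, 0.709, 0.96 and 1.01 in those labelled NOTCHWT_TCFKO and 1.19, 1.32 and 1.23 in those labelled NOTCHWT_TCFWT. The libraries labelled NICD_TCFWT overlapped in this ratio with those labelled NOTCHWT_TCFKO, and both groups lay below the other 6 libraries. In the annotation, 208 exon bases of Rag2 (6.07%) also belong to B230118H07Rik on the opposite strand, and 80 of Rag1 (1.21%) to the same gene on its own strand. Whether counting used strand is not given in the sources used here, so that reads of these stretches cannot be assigned with certainty. B230118H07Rik averaged 19.3 ± 9.29, 30.2 ± 4.02, 29.8 ± 3.88 and 26.6 ± 1.64 CPM in the libraries labelled NICD_TCFKO, NICD_TCFWT, NOTCHWT_TCFKO and NOTCHWT_TCFWT.

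**Figure D2:**
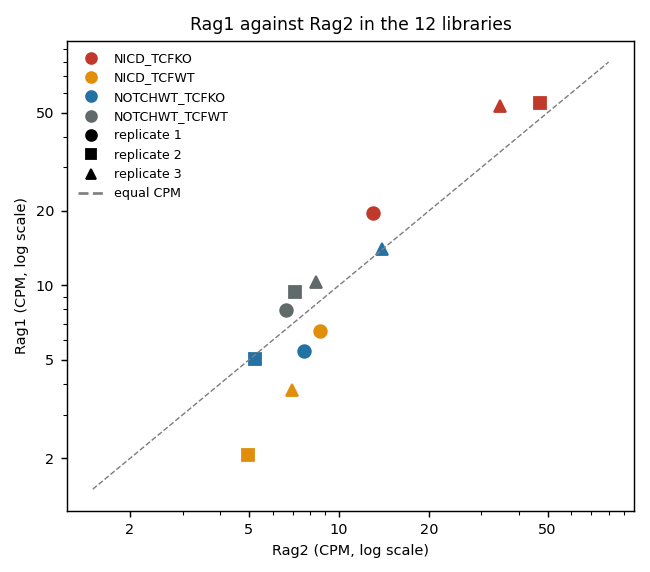
Rag1 against Rag2 (CPM, log axes) in each of the 12 libraries, coloured by group, with symbols for replicates and a dashed line at equal CPM. The libraries NICD_TCFKO 2 and 3 stand apart at 54.7 and 53.0 CPM of Rag1, and the libraries labelled NICD_TCFWT hold the least Rag1 for their Rag2, with count ratios of 0.415 to 0.761.

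The library NICD_TCFKO 1 was the lowest of its group for Rag1, Rag2, Dntt and Il7r and for T cell markers. Its 12 T cell markers summed to 466 CPM, against 1250 and 1052 CPM in NICD_TCFKO 2 and 3, an order that Dntt, highest in NICD_TCFKO 3, did not share. It was also the only library of the group with Y-linked transcripts. All 12 markers had counts in this group, among them the T cell receptor signalling chain Cd3e at 3.88 to 28.6 CPM. The T cell markers summed to 42.1 to 72.6 CPM in the libraries labelled NICD_TCFWT, where Cd3g and Ptcra had 0 counts, and to 35.4 to 60.9 CPM in those labelled NOTCHWT_TCFKO, where Ptcra had 0 counts. They summed to 363 to 412 CPM in the libraries labelled NOTCHWT_TCFWT, with means of 203 CPM for the kinase gene Lck, 136.5 CPM for Trbc2 and 45.8 CPM for Thy1, and with Cd3e at 0.0288 to 0.163 CPM. Their part in the levels of Rag1, Rag2, Dntt and Il7r was not tested. In such bulk samples fewer cells of a type and less RNA per cell cannot be told apart.

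Il12a (ENSMUSG00000027776, chromosome 3, 68690644 to 68698547, plus strand) encodes the alpha subunit of interleukin 12, and Dach1 (ENSMUSG00000055639, chromosome 14, 97786853 to 98169765, minus strand) a transcription cofactor of the dachshund family. Both were, like Flt3, highest in the libraries labelled NICD_TCFWT and NOTCHWT_TCFKO. Il12a stood at 15.3, 9.64 and 12.4 CPM in the libraries labelled NICD_TCFKO and at 74.5, 65.4 and 61.2 CPM in those labelled NICD_TCFWT. It stood at 47.3, 31.2 and 65.9 CPM in those labelled NOTCHWT_TCFKO and at 12.8, 14.7 and 10.4 CPM in those labelled NOTCHWT_TCFWT, where each library had 445 counts. The groups NICD_TCFKO and NOTCHWT_TCFWT overlapped with each other and lay below all 6 libraries of the other groups. Dach1 stood at 50.3, 20.2 and 41.9 CPM in the libraries labelled NICD_TCFKO and at 97.6, 99.7 and 126 CPM in those labelled NICD_TCFWT. It stood at 112, 115 and 113 CPM in those labelled NOTCHWT_TCFKO and at 45.1, 47.6 and 43.0 CPM in those labelled NOTCHWT_TCFWT. The groups overlapped in the same pairs, and the 3 libraries labelled NOTCHWT_TCFKO lay within 1.02-fold of each other.

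Il12a was higher than in the libraries labelled NOTCHWT_TCFWT by 2.41 ± 0.27 in those labelled NICD_TCFWT (adjusted p = 0.000243) and by 1.93 ± 0.26 in those labelled NOTCHWT_TCFKO (adjusted p = 0.000647). In the libraries labelled NICD_TCFKO it changed by -2.43 ± 0.26 relative to those labelled NICD_TCFWT (adjusted p = 0.000468) and by -1.95 ± 0.26 relative to those labelled NOTCHWT_TCFKO (adjusted p = 0.000841). Dach1 was higher by 1.25 ± 0.26 (adjusted p = 0.00775) and 1.33 ± 0.26 (adjusted p = 0.00543) in the first pair of comparisons. It changed by -1.52 ± 0.26 (adjusted p = 0.00543) and -1.60 ± 0.26 (adjusted p = 0.00299) in the second pair. These calls of Flt3, Il12a and Dach1 were kept in each of the alternatives tried, the fits without 1 library included. The difference between the libraries labelled NICD_TCFKO and those labelled NOTCHWT_TCFWT was -0.02 ± 0.25 for Il12a (adjusted p = 0.979) and -0.27 ± 0.26 for Dach1 (adjusted p = 0.595).

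The promoter windows of the 3 genes that shared this order are shown with the same motifs in capitals. That of Flt3 is chr5:147400440-147400739 on the minus strand, that of Il12a chr3:68690394-68690693 on the plus strand, and that of Dach1 chr14:98169716-98170015 on the minus strand.
Flt3: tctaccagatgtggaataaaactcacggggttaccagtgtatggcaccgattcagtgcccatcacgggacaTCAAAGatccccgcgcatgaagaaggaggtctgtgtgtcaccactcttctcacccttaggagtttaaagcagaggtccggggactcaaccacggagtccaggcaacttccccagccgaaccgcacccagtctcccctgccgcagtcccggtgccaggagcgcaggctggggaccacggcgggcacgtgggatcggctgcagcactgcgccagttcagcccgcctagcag
Il12a: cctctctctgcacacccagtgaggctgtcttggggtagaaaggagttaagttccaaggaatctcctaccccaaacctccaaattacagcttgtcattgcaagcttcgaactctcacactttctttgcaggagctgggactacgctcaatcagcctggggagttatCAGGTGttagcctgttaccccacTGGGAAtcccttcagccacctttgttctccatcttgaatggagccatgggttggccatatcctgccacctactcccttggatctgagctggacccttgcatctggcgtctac
Dach1: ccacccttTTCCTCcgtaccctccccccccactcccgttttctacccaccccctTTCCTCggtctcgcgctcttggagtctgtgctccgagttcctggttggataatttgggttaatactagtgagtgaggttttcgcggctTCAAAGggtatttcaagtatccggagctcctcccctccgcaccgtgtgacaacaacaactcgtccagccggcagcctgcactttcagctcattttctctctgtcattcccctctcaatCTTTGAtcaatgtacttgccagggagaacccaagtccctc
The Flt3 window holds CTTTGA on the opposite strand, printed as TCAAAG, at position -179. The Dach1 window holds it on both strands, at -108 and at 11, and GAGGAA on the opposite strand at -242 and -196. The Il12a window holds an E-box at -85 and TGGGAA at -62, and a second Il12a start in the table holds TGTGGT and TGGGAA. No motif was found in all 3 genes. Of the 10 genes 8 had a window, 9 windows in all, of which 4 hold TGGGAA, 3 TGTGGT and 2 each of the other motifs. Promoters of Cd52 and Lsp1 were not used here. A match is a string of letters and no measured site.

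Markers of granulocytes and monocytes were split between the libraries in which these 3 genes were high. The 12 markers, all with counts in every group, summed to 398 to 1469 CPM in the libraries labelled NICD_TCFKO, 1825 to 6387 CPM in those labelled NICD_TCFWT, 1751 to 11040 CPM in those labelled NOTCHWT_TCFKO and 139.9 to 240.1 CPM in those labelled NOTCHWT_TCFWT. Mpo made up most of the sum in both groups where Flt3 was high, at 435 CPM in the libraries labelled NICD_TCFKO, 2697 CPM in those labelled NICD_TCFWT, 3792 CPM in those labelled NOTCHWT_TCFKO and 23.5 CPM in those labelled NOTCHWT_TCFWT. The markers of later granulocytes S100a8, S100a9, Ngp, Camp and Ltf averaged 6.503 to 37.0 CPM in the libraries labelled NICD_TCFKO and 0.414 to 1.75 CPM in those labelled NICD_TCFWT. They averaged 53.4 to 268 CPM in those labelled NOTCHWT_TCFKO and 0.233 to 1.203 CPM in those labelled NOTCHWT_TCFWT, an order of means unlike that of Flt3. Each mean of the NICD_TCFKO and NOTCHWT_TCFKO groups came mostly from a single library. In these groups S100a8 ran from 0.025 to 68.7 CPM and from 5.84 to 592.9 CPM, and Ngp from 0 to 74.8 CPM and from 0.396 to 577.7 CPM. Within groups the order of the sum did not keep 1 relation to that of Flt3 and Il12a. It was the reverse of both in the libraries labelled NOTCHWT_TCFKO (7458, 11040 and 1751 CPM in replicates 1, 2 and 3). The same held in those labelled NICD_TCFWT (1825, 2949 and 6387 CPM). In those labelled NOTCHWT_TCFWT the sum (194.9, 240.1 and 139.9 CPM) had the order of both genes. In those labelled NICD_TCFKO the sum (643.6, 398.2 and 1469 CPM) had the order of Flt3 and not that of Il12a. The part of these markers in the levels of Flt3, Il12a and Dach1 was not tested.

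Cd52 (ENSMUSG00000000682, chromosome 4, 134082448 to 134095082, minus strand), a small glycoprotein anchored in the lymphocyte membrane, had group means within 22.1 to 41.5 CPM. It stood at 27.6, 53.1 and 43.9 CPM in the libraries labelled NICD_TCFKO and at 23.7, 29.0 and 25.4 CPM in those labelled NICD_TCFWT. It stood at 28.1, 52.0 and 40.4 CPM in those labelled NOTCHWT_TCFKO and at 25.4, 23.5 and 17.2 CPM in those labelled NOTCHWT_TCFWT. Only the libraries labelled NOTCHWT_TCFWT lay below a whole group, and below those labelled NICD_TCFKO and NOTCHWT_TCFKO alone. It was higher in the libraries labelled NOTCHWT_TCFKO than in those labelled NOTCHWT_TCFWT (0.87 ± 0.27, adjusted p = 0.0418). This call was lost in 9 of 12 fits without 1 library, all but those without NICD_TCFKO 1, NICD_TCFKO 2 or NOTCHWT_TCFKO 1 (adjusted p = 0.0553 to 0.15). It was also lost with no filter, in limma-voom, with the sheet covariate and with only the groups compared (adjusted p = 0.0535, 0.0626, 0.0678 and 0.0605). The difference of 0.91 ± 0.27 between the libraries labelled NICD_TCFKO and NOTCHWT_TCFWT missed the threshold (adjusted p = 0.0711), and passed in DESeq2 (adjusted p = 0.01), with the Y-linked covariate (adjusted p = 0.0191) and without NICD_TCFKO 1 (adjusted p = 0.0204). A stretch of 172 exon bases of Cd52 (14.49%) also belongs to Crybg2 on the opposite strand, which averaged 0.893 ± 0.653, 1.91 ± 0.488, 1.10 ± 0.264 and 0.397 ± 0.226 CPM in the 4 groups in the order given above.

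Ly86 (ENSMUSG00000021423, chromosome 13, 37345208 to 37419036, plus strand) encodes MD-1, the partner of the receptor RP105 (Cd180). It stood at 13.7, 53.5 and 32.7 CPM in the libraries labelled NICD_TCFKO and at 1.60, 2.34 and 9.52 CPM in those labelled NICD_TCFWT. It stood at 17.6, 27.3 and 5.19 CPM in those labelled NOTCHWT_TCFKO and at 0.173, 0.0331 and 0.42 CPM in those labelled NOTCHWT_TCFWT, where it had 6, 1 and 18 counts. The libraries labelled NOTCHWT_TCFWT lay below all the others. Ly86 was higher than in these by 7.21 ± 1.16 in the libraries labelled NICD_TCFKO (adjusted p = 0.00889), 4.32 ± 1.07 in those labelled NICD_TCFWT (adjusted p = 0.0203) and 6.21 ± 1.12 in those labelled NOTCHWT_TCFKO (adjusted p = 0.00443). In limma-voom all 3 calls were lost (adjusted p = 0.0996, 0.266 and 0.0918), and that of the NICD_TCFWT libraries was also lost without NICD_TCFWT 3, NOTCHWT_TCFWT 1 or NOTCHWT_TCFWT 2 (adjusted p = 0.062 to 0.0728). The libraries labelled NICD_TCFKO and NICD_TCFWT did not overlap, with a difference of 2.89 ± 0.90 that missed the threshold (adjusted p = 0.066). It passed in DESeq2 (adjusted p = 0.0131), with a covariate for the inferred library sheet (adjusted p = 0.0341) or for Y-linked transcripts (adjusted p = 0.0239), and without NICD_TCFKO 1 or NICD_TCFWT 3 (adjusted p = 0.0474 and 0.0404). Macrophage markers (10 genes) summed to 30.9 to 44.5 CPM in the libraries labelled NICD_TCFKO, 42.3 to 51.7 CPM in those labelled NICD_TCFWT, 414 to 562 CPM in those labelled NOTCHWT_TCFKO and 25.3 to 31.6 CPM in those labelled NOTCHWT_TCFWT. Their part in the level of Ly86 was not tested.

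Lsp1 (ENSMUSG00000018819, chromosome 7, 142460809 to 142494867, plus strand), an actin-binding protein of leukocytes, changed by small amounts at a high level. It stood at 181, 312 and 243 CPM in the libraries labelled NICD_TCFKO and at 185, 171 and 155 CPM in those labelled NICD_TCFWT. It stood at 108, 145 and 165 CPM in those labelled NOTCHWT_TCFKO and at 124, 103 and 92.1 CPM in those labelled NOTCHWT_TCFWT. The libraries labelled NICD_TCFKO lay above those of both NOTCHWT groups and overlapped with those labelled NICD_TCFWT. Lsp1 was higher in the libraries labelled NICD_TCFKO than in those labelled NOTCHWT_TCFWT (1.2 ± 0.21, adjusted p = 0.00897) and NOTCHWT_TCFKO (0.82 ± 0.20, adjusted p = 0.0211), and higher in those labelled NICD_TCFWT than in those labelled NOTCHWT_TCFWT (0.68 ± 0.20, adjusted p = 0.039). The call against NOTCHWT_TCFKO was lost without NICD_TCFKO 2, NICD_TCFKO 3 or NOTCHWT_TCFKO 1 (adjusted p = 0.0515 to 0.075). The last call was lost in 7 of 12 fits without 1 library, namely any library labelled NICD_TCFWT, NOTCHWT_TCFWT 2 or 3, NICD_TCFKO 3 or NOTCHWT_TCFKO 2 (adjusted p = 0.0505 to 0.132), and also with no filter and with the Y-linked covariate (adjusted p = 0.0539 and 0.0531).

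The comparison that is by label N1IC with none, and Tcf7 intact, set the NICD_TCFWT libraries against the NOTCHWT_TCFWT ones. Dtx1 was lower in the libraries labelled NICD_TCFWT, against the N1IC label (-9.39 ± 0.57, adjusted p = 8.91e-06), and Notch1 was lower too (-1.66 ± 0.22, adjusted p = 0.000707). In this comparison 7 of the 10 genes were higher (Flt3, Il7r, Dntt, Il12a, Dach1, Ly86 and Lsp1), beside 10.6% of all genes tested (20.4% in either direction). Since the 10 were chosen with earlier results of these data known, this share and those of the later comparisons are descriptions. The median log2 fold change of the 10 was 1.83 beside 0 over all genes. The test called 0 of the 10 lower, as did DESeq2 and limma-voom, and 0 were lower at an unadjusted p under 0.05 in edgeR, beside 9.75% of all genes lower. Rag1, at -1.16 ± 0.54, did not overlap between the groups, as 44.2% of all genes did not, and missed the threshold (adjusted p = 0.161). Limma-voom called 5 of the 10 higher and DESeq2 called 7.

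By label, the deletion of Tcf7 without N1IC set the NOTCHWT_TCFKO libraries against the NOTCHWT_TCFWT ones. This pair also differed in Dtx1 (-8.67 ± 0.54, adjusted p = 6.46e-06) and Notch1 (-1.94 ± 0.22, adjusted p = 0.000244), both lower in the libraries labelled NOTCHWT_TCFKO. Again 7 of the 10 were higher, beside 10.8% of all genes (21.3% in either direction), namely Flt3, Il7r, Dntt, Il12a, Dach1, Ly86 and Cd52. No gene of the 10 was lower (0 in edgeR, 0 in DESeq2, 0 in limma-voom, 0 at unadjusted p below 0.05 in edgeR), beside 10.5% of all genes lower. The median of the 10 was 1.63 beside 0.000941 over all genes. Rag1 (-0.18 ± 0.53), Rag2 (0.27 ± 0.45) and Lsp1 (0.39 ± 0.20) did not pass. Since this comparison and the preceding one share the NOTCHWT_TCFWT libraries, the groups NOTCHWT_TCFKO and NICD_TCFWT were also compared directly. In that comparison 0 of the 10 passed in edgeR, with 2 higher at an unadjusted p under 0.05 (Il7r and Cd52) and 0 lower, and DESeq2 called 1 higher and limma-voom 0. Of all genes 1.34% were higher and 1.54% lower there (2.87% in either direction). The differences of the 10 ranged from -0.48 ± 0.25 for Il12a to 1.89 ± 0.87 for Ly86, and a p that misses the threshold does not show that the levels are alike.

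The deletion of Tcf7 with N1IC, by label, set the NICD_TCFKO libraries against the NICD_TCFWT ones, the pair in which Tcf7 itself went against its label. Here the 10 genes split. Il7r, Rag1 and Rag2 were higher (3 genes, beside 7.25% of all genes) and Flt3, Il12a and Dach1 lower (3 genes, beside 5.15%, and 12.4% in either direction). Dntt (-0.76 ± 0.62), Cd52 (0.67 ± 0.27), Ly86 (2.89 ± 0.90) and Lsp1 (0.53 ± 0.20) did not pass. Without the library NICD_TCFKO 1 the last 3 passed as higher too (adjusted p = 0.0322, 0.0474 and 0.0267), which made 6 of 10 higher.

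Against the libraries labelled NOTCHWT_TCFKO, from which they differ by label in N1IC alone, those labelled NICD_TCFKO held more Il7r, Rag1, Rag2 and Lsp1 (4 genes higher, beside 10.3% of all genes) and less Flt3, Il12a and Dach1 (3 genes lower, beside 8.06%, and 18.4% in either direction). This comparison shares the NICD_TCFKO libraries with the preceding one. The 4 higher calls became 1 without NICD_TCFKO 2 or NOTCHWT_TCFKO 1, 2 without NICD_TCFKO 3 or NOTCHWT_TCFKO 2, and 1 with only these groups fitted, where Rag1, Rag2 and Lsp1 had an adjusted p of 0.0651, 0.109 and 0.089. Against the libraries labelled NOTCHWT_TCFWT, from which they differ in both labels, those labelled NICD_TCFKO held more of 6 of the 10 (Il7r, Dntt, Rag1, Rag2, Ly86 and Lsp1), beside 4.01% of all genes (6.30% in either direction). Lower calls among the 10 were 0 in edgeR, also by unadjusted p below 0.05, and 0 in DESeq2 and limma-voom, beside 2.30% of all genes lower. These 6 became 3 without NOTCHWT_TCFWT 1 or 3.

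**Figure D3:**
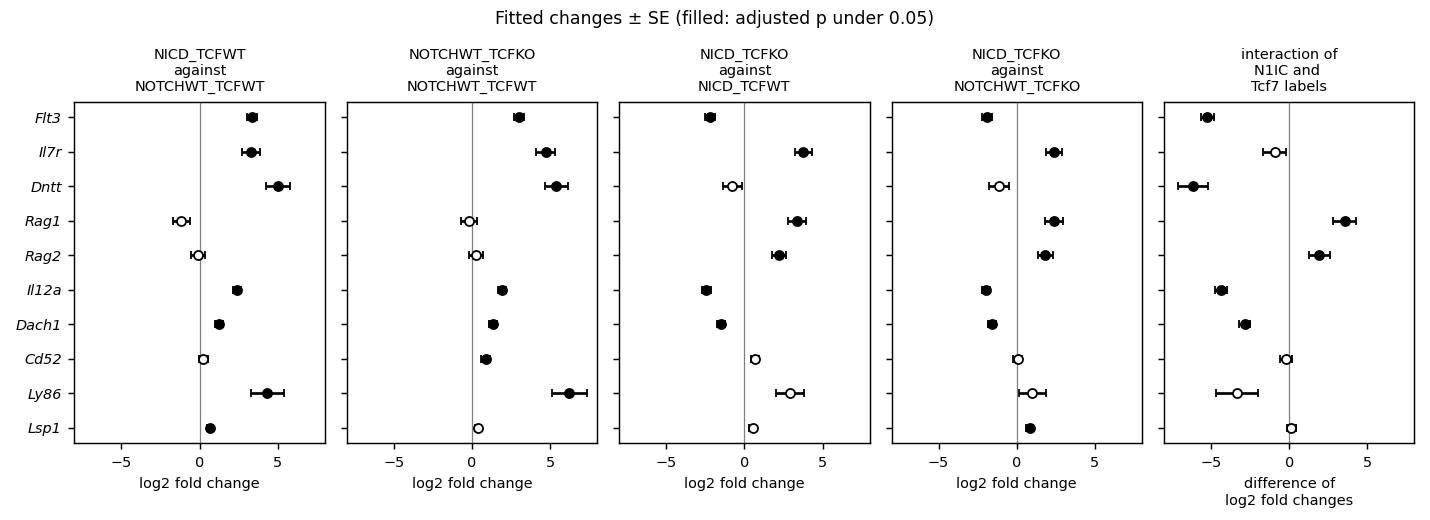
Log2 fold change of each of the 10 genes in the 4 comparisons that change 1 label, and the interaction at the right, with bars of 1 SE and filled points for an adjusted p under 0.05. Flt3, Il12a and Dach1 lie above 0 in both comparisons against the NOTCHWT_TCFWT libraries in which 1 label differs and below 0 where the NICD_TCFKO libraries are set against NICD_TCFWT or NOTCHWT_TCFKO, while Rag1 and Rag2 were called only in comparisons with the NICD_TCFKO libraries.

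Whether the difference between the Tcf7 labels depended on the N1IC label was tested as an interaction, the difference of NICD_TCFKO and NICD_TCFWT minus that of NOTCHWT_TCFKO and NOTCHWT_TCFWT. It was negative for Flt3 (-5.22 ± 0.43, adjusted p = 2.88e-05), Dntt (-6.16 ± 0.96, adjusted p = 0.00165), Il12a (-4.36 ± 0.37, adjusted p = 2.53e-05) and Dach1 (-2.85 ± 0.37, adjusted p = 0.000378), beside 13.5% of all genes negative. It was positive for Rag1 (3.53 ± 0.77, adjusted p = 0.00732) and Rag2 (1.94 ± 0.65, adjusted p = 0.0479), beside 13.8% of all genes positive and 27.4% of either sign. The call of Rag2 was lost in 10 of 12 fits without 1 library, all but those without NICD_TCFKO 1 or NOTCHWT_TCFKO 3 (adjusted p = 0.0599 to 0.103). It was also lost with no filter, in limma-voom and with the sheet covariate (adjusted p = 0.0798, 0.129 and 0.0731). With a covariate for Y-linked transcripts both Rag calls were lost (adjusted p = 0.0598 for Rag1 and 0.25 for Rag2). Il7r (-0.94 ± 0.72), Cd52 (-0.19 ± 0.37), Ly86 (-3.32 ± 1.34) and Lsp1 (0.14 ± 0.29) did not pass. For Ly86 the interaction passed in DESeq2 (adjusted p = 0.0342) and with the Y-linked covariate (adjusted p = 0.00765).

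Other genes of the same pathways are given as counts, by comparisons in the order NICD_TCFWT against NOTCHWT_TCFWT, NOTCHWT_TCFKO against NOTCHWT_TCFWT, NICD_TCFKO against NICD_TCFWT and NICD_TCFKO against NOTCHWT_TCFKO. Over all genes tested, 10.6%, 10.8%, 7.25% and 10.3% were higher and 9.75%, 10.5%, 5.15% and 8.06% lower in that order. Of 20 other genes used as markers of lymphoid priming, Notch1 among them, 3, 4, 6 and 10 were higher and 7, 9, 2 and 2 lower, with median log2 fold changes of -0.19, -0.24, 0.43 and 0.34 beside medians within 0.00378 of 0 over all genes. The transcription factor gene Mef2c was lower in the libraries labelled NICD_TCFKO than in those labelled NICD_TCFWT (138 against 236 CPM, -0.77 ± 0.12, adjusted p = 0.00278). The adaptor gene Lax1 changed by -1.89 ± 0.24, -2.12 ± 0.24, 1.68 ± 0.23 and 1.91 ± 0.24 in the 4 comparisons, each past the threshold and opposite in sign to Flt3. The transcription factor gene Sox4 was lower in the libraries labelled NICD_TCFWT than in those labelled NOTCHWT_TCFWT (356 against 623 CPM, -0.81 ± 0.11, adjusted p = 0.000651). The adaptor gene Blnk, called higher in the first 2 comparisons, had 77, 312, 874 and 3 counts in all in the libraries labelled NICD_TCFKO, NICD_TCFWT, NOTCHWT_TCFKO and NOTCHWT_TCFWT, and no fold is given against 3 counts.

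Of 16 genes tested of Flt3 and Il7r signalling, 1, 2, 2 and 5 were higher and 5, 5, 1 and 3 lower, with medians of -0.03, -0.18, 0.11 and 0.11. Bcl2, the survival gene downstream of Il7r, had its 4 group means in the order of Flt3, with 76.3, 180.2, 160.02 and 30.3 CPM in the libraries labelled NICD_TCFKO, NICD_TCFWT, NOTCHWT_TCFKO and NOTCHWT_TCFWT. It changed by 2.57 ± 0.19, 2.40 ± 0.18, -1.24 ± 0.18 and -1.07 ± 0.18 in the 4 comparisons, with adjusted p = 1.46e-05, 1.68e-05, 0.00202 and 0.00286. Il2rg, the common chain with which Il7r signals, was lower in the libraries labelled NOTCHWT_TCFKO than in those labelled NOTCHWT_TCFWT (53.2 against 164 CPM, -1.62 ± 0.21, adjusted p = 0.000519) and higher in those labelled NICD_TCFKO than in those labelled NOTCHWT_TCFKO (119 against 53.2 CPM, 1.17 ± 0.21, adjusted p = 0.0045). The kinase gene Jak1 was lower in the libraries labelled NICD_TCFWT than in those labelled NOTCHWT_TCFWT (-0.48 ± 0.07, adjusted p = 0.0015).

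Of 14 genes of V(D)J recombination and end joining, 0, 0, 3 and 3 were higher and 3, 2, 0 and 0 lower, with medians of -0.11, -0.05, 0.32 and 0.16. Those higher in the libraries labelled NICD_TCFKO than in those labelled NICD_TCFWT, where Rag1 and Rag2 were also higher, were the ligase gene Lig4 (20.8 against 5.43 CPM, 1.94 ± 0.29, adjusted p = 0.00243), the Ku subunit gene Xrcc6 (198 against 134 CPM, 0.56 ± 0.12, adjusted p = 0.0123) and the DNA-dependent protein kinase gene Prkdc (134 against 107 CPM, 0.33 ± 0.07, adjusted p = 0.0119). The same genes were the 3 higher ones against the libraries labelled NOTCHWT_TCFKO, with Lig4 at 1.84 ± 0.29 (adjusted p = 0.00214). Against the libraries labelled NOTCHWT_TCFWT, the Ku subunit gene Xrcc5 was lower in those labelled NICD_TCFWT (-0.62 ± 0.15, adjusted p = 0.0136) and in those labelled NOTCHWT_TCFKO (-0.58 ± 0.15, adjusted p = 0.016), as was Prkdc (-0.31 ± 0.07 and -0.23 ± 0.07). Of 18 genes that regulate Rag or Dntt, 2, 2, 4 and 4 were higher and 1, 1, 0 and 1 lower, with medians of 0.02, 0.11, 0.23 and 0.15. Ets1 was higher in the libraries labelled NICD_TCFKO than in those labelled NICD_TCFWT (118 against 32.6 CPM, 1.85 ± 0.26, adjusted p = 0.00215), as were the E protein gene Tcf12 (0.65 ± 0.10, adjusted p = 0.00264) and Runx1 (0.61 ± 0.12, adjusted p = 0.00891). Ebf1, the factor of the B lineage, had 9, 71, 279 and 1 counts in all in the libraries labelled NICD_TCFKO, NICD_TCFWT, NOTCHWT_TCFKO and NOTCHWT_TCFWT. It is 1 of the 2 higher genes of the first and of the second comparison, and no fold is given against a single count.

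Of 7 genes tested of the interleukin 12 family and its receptors, 1, 1, 1 and 2 were higher and 2, 3, 0 and 0 lower, with medians of -0.26, -0.85, -0.09 and 0.28. The receptor chain gene Il12rb2 moved opposite to Il12a in all 4 comparisons, by -1.09 ± 0.21, -1.51 ± 0.22, 1.99 ± 0.22 and 2.40 ± 0.22, with adjusted p = 0.00554, 0.000899, 0.000472 and 8.29e-05. Its partner chain gene Il12rb1 was lower in the first 2 comparisons (-1.17 ± 0.29 and -1.50 ± 0.29, adjusted p = 0.0172 and 0.0049) and higher in the last (0.95 ± 0.29, adjusted p = 0.0446). Of 7 genes listed beside Ly86 (Cd180, Tlr4, Ly96, Cd14, Myd88, Lbp and Tlr2), 3, 5, 0 and 1 were higher and 1, 1, 1 and 2 lower, with medians of 0.49, 0.73, -0.33 and -0.57. Cd180 itself was higher in the libraries labelled NICD_TCFWT (48.3 against 21.1 CPM, 1.195 ± 0.16, adjusted p = 0.00069) and in those labelled NOTCHWT_TCFKO (41.8 against 21.1 CPM, 0.99 ± 0.16, adjusted p = 0.00176) than in those labelled NOTCHWT_TCFWT. It was also higher in those labelled NICD_TCFKO than in the latter (36.5 against 21.1 CPM, 0.79 ± 0.16, adjusted p = 0.0175). Lbp, which binds bacterial lipopolysaccharide, was also highest in the NOTCHWT_TCFKO and NICD_TCFWT libraries, with 12.02 ± 3.80, 36.9 ± 16.5, 58.24 ± 16.04 and 9.93 ± 2.43 CPM in the libraries labelled NICD_TCFKO, NICD_TCFWT, NOTCHWT_TCFKO and NOTCHWT_TCFWT.

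Markers of other cells that the gate could hold are shown by group. B cell markers (10 genes) were low everywhere, with sums of 29.2 to 46.0 CPM in the libraries labelled NICD_TCFKO, 29.5 to 35.4 CPM in those labelled NICD_TCFWT, 30.3 to 73.3 CPM in those labelled NOTCHWT_TCFKO and 23.6 to 31.2 CPM in those labelled NOTCHWT_TCFWT, where Pax5 had 0 counts. Natural killer and innate lymphoid markers (10 genes) summed to 323 to 489, 164 to 187, 134 to 207 and 840 to 1605 CPM in the same order. The highest sum, that of the libraries labelled NOTCHWT_TCFWT, was mostly Gzmb at a mean of 1009 CPM. Nkg7 (212.7 CPM) and Il1rl1 (32.0 CPM, range 7.47 to 54.1 CPM) also had their highest means there. Klrb1c, Rora, Eomes and Tbx21 had their lowest means there, but group means of Eomes (0.0522 to 0.161 CPM) and Tbx21 (0.113 to 0.443 CPM) were low throughout. The part of these markers in the levels of the 10 genes was not tested. Dendritic cell markers (11 genes) summed to 412 to 754, 359 to 469, 393 to 471 and 369.8 to 630.2 CPM in that order, with Siglech and Cd209a at 0 counts in the libraries labelled NOTCHWT_TCFWT. Erythroid (8 genes), megakaryocyte (7 genes) and mast cell and basophil markers (7 genes) summed over all 12 libraries to 164 to 1472, 116 to 479 and 273 to 749 CPM.

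**Figure D4:**
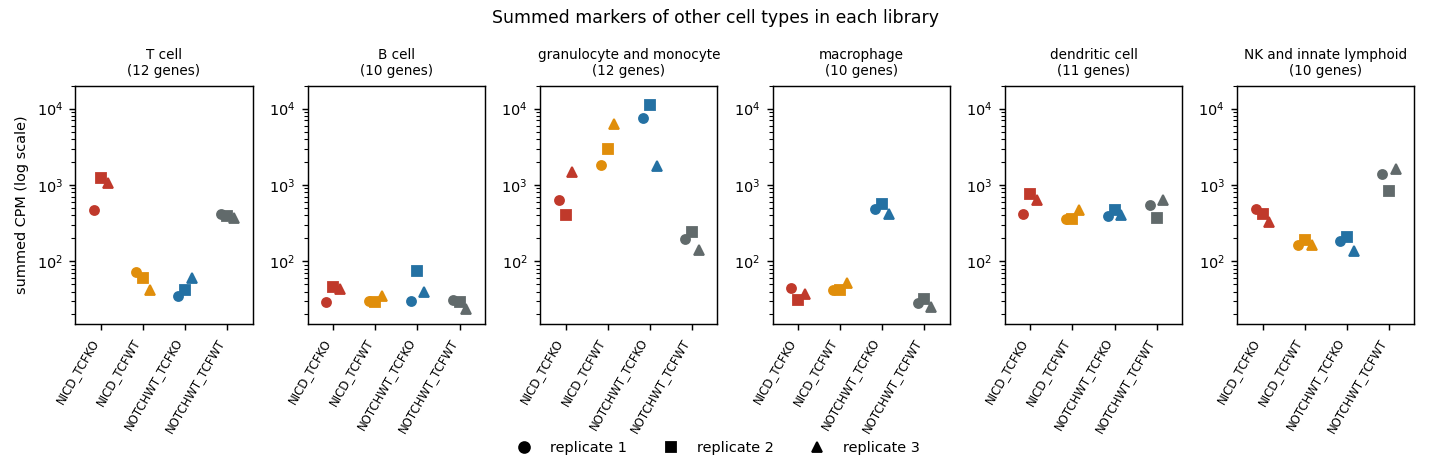
Summed CPM (log axis) of marker lists of other cell types in each of the 12 libraries, by group. T cell markers reach 466 to 1250 CPM in the libraries labelled NICD_TCFKO and 363 to 412 CPM in those labelled NOTCHWT_TCFWT, while the sum of granulocyte and monocyte markers, mostly Mpo, is highest in those labelled NICD_TCFWT and NOTCHWT_TCFKO.

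Across the 12 libraries, likeness of log2 CPM patterns was described by Pearson's r, which here mostly compares the levels of the 4 groups, since libraries of a group share their label and sort. Flt3 was most like Il12a (r = 0.947), Il12a like Dach1 as well (r = 0.906), and Rag1 like Rag2 (r = 0.937). Il7r was most like Ly86 (r = 0.935) and Rag1 least like Dach1 (r = -0.761). Of 10304 other genes with at least 5 CPM in a group, those most like Flt3 were the transporter gene Slc16a11 (r = 0.984) and the Polycomb gene Cbx7 (r = 0.981). Those most like Il12a were Mef2c (r = 0.987) and Rhobtb1 (r = 0.974), and those most like Dach1 were Cpq (r = 0.983) and Pygl (r = 0.973). For Rag1 they were Gfra1 (r = 0.974) and St8sia1 (r = 0.95), for Rag2 Nedd4l (r = 0.942) and Arpp21 (r = 0.939), and for Dntt the inhibitory receptor gene Btla (r = 0.964) and the interferon receptor gene Ifnar2 (r = 0.959). The lists ended with Cxcr4 (r = 0.93) and Cep164 (r = 0.924) for Il7r, Nlrc4 (r = 0.953) and Kmo (r = 0.947) for Ly86, Slc25a37 (r = 0.935) and Psap (r = 0.915) for Cd52, and Edaradd (r = 0.94) and Irf5 (r = 0.937) for Lsp1. Arpp21 averaged 95.4 CPM in the libraries labelled NICD_TCFKO, 7.98 CPM in those labelled NICD_TCFWT, 9.56 CPM in those labelled NOTCHWT_TCFKO and 5.79 CPM in those labelled NOTCHWT_TCFWT.

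**Figure D5:**
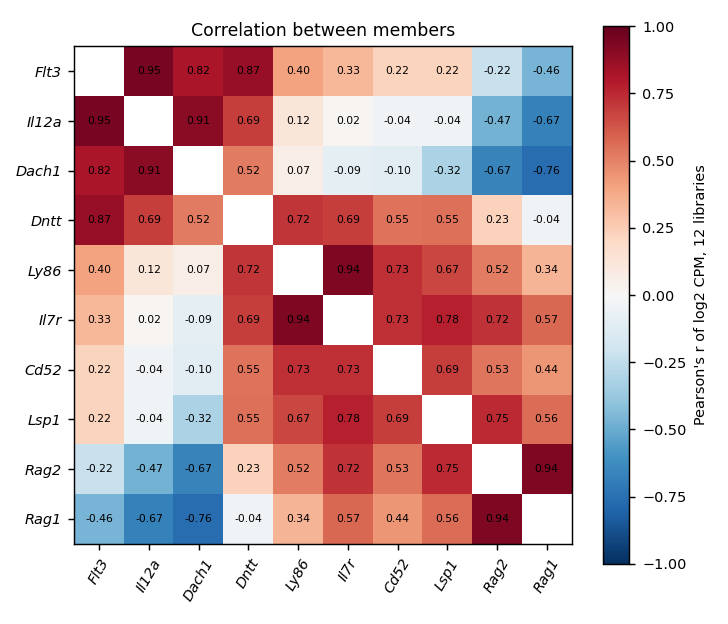
Pearson's r of log2 CPM between each pair of the 10 genes over the 12 libraries, as a colour scale from -1 to 1. Flt3, Il12a and Dach1 are alike (0.818 to 0.947), Rag1 and Rag2 are alike (0.937), and Rag1 and Dach1 run against each other (-0.761). Dntt is also like Flt3 (0.874), and less like Il12a (0.691) and Dach1 (0.517).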

How the data were processed

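RNA of sorted LSK cells from 12 samples was sequenced as single-end reads, all in batch 1, per the labels' protocols. The authors deposited raw counts per Ensembl gene for each sample and for the series. The submitters' processing notes name the build mm10, the counter featureCounts 1.4.4, the aligner HISAT2 and the trimmer cutadapt 1.9.1, and list limma, bcl2fastq 2.17 and edgeR 3.28.0, with no order or settings. The authors also deposited a log2 table of 15759 genes. Its values equal the log2 of the raw count with 0.5 added, less a constant for each library.

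Gene symbols came from a table of Ensembl identifiers (37607 of 39017 genes). Genes were filtered on low counts by group, scaled by TMM and tested in edgeR 4.0.16 (R 4.3.3) by a two-sided quasi-likelihood F test over all 12 libraries with 1 mean per group. The script was tested on simulated data. Alternatives were DESeq2 1.42.0, limma 3.58.1 (voom), other filters and scalings, covariates for Y-linked transcripts (over 10 CPM) or for an inferred library sheet, the replicate number as a block, only the groups compared, and leaving out each library. The inferred sheet set replicate 3 of NOTCHWT_TCFWT, NICD_TCFWT and NICD_TCFKO apart, and held no library labelled NOTCHWT_TCFKO. The sample numbers after S in their titles repeat those of other libraries. The labels name no such sheet and put all libraries in batch 1.

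The 10 genes and the gene and marker lists were chosen with earlier results of these data known. Named beside the 10 were up to 3 genes of a list with the smallest p among those called in a comparison of 1 label, and the 2 genes most like each by Pearson's r (log2 CPM, prior count 2, a mean of at least 5 CPM in a group). Of the genes the rule names, part are given in the text, and Ebf1 and Blnk by counts alone. Positions and exon lengths are from the GENCODE annotation of GRCm38 (mm10). Promoters are from RefSeq (GRCm38.p6), where 8 of the 10 genes matched.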

Additional observations from a re-analysis of the deposited data

Results flagged for a closer look

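The difference between the Tcf7 labels itself differed between the N1IC labels for 6 of the 10 genes, tested as an interaction in edgeR with Benjamini-Hochberg adjustment over 16024 genes. The interaction was -5.2226 for Flt3 (log2, adjusted p = 2.88e-05), -6.1572 for Dntt (adjusted p = 0.00165), -4.3588 for Il12a (adjusted p = 2.53e-05) and -2.8491 for Dach1 (adjusted p = 0.000378). It was 3.5348 for Rag1 (adjusted p = 0.00732) and 1.9359 for Rag2 (adjusted p = 0.0479). That of Rag2 was lost in 10 of 12 fits without 1 library (adjusted p = 0.0599 to 0.103), and with a covariate for Y-linked transcripts both were lost (adjusted p = 0.0598 for Rag1 and 0.25 for Rag2). Over all genes tested, 27.4% passed in this comparison. Tcf7 and Notch1 went against the labels in part, so that these values describe libraries by label.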

How the results depend on the processing

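Beside the values of all 12 libraries, 578 results under other settings and 760 without 1 library kept their direction and their side of the threshold, 28 and 56 lost the threshold, 11 and 8 gained it, and 3 and 16 changed sign. Each change of sign was in a difference that did not pass the test with all libraries, and the cause was not tested. With the Y-linked covariate Rag2 stood at 0.0222 in NICD_TCFWT against NOTCHWT_TCFWT, Cd52 at -0.1173 in NICD_TCFKO against NOTCHWT_TCFKO and Lsp1 at -0.04613 in the interaction. Without 1 library, Rag2 ranged from -0.3035 to 0.06044 in NICD_TCFWT against NOTCHWT_TCFWT, Rag1 from -0.7907 to 0.05912 and Rag2 from -0.1695 to 0.5289 in NOTCHWT_TCFKO against NOTCHWT_TCFWT, and Cd52 from -0.167 to 0.2917 in NICD_TCFKO against NOTCHWT_TCFKO. Il12a ranged from -0.1897 to 0.1318 and Dach1 from -0.533 to 0.02887 in NICD_TCFKO against NOTCHWT_TCFWT, Dntt from -0.07553 to 0.7546 and Rag2 from -0.06518 to 0.6528 in NOTCHWT_TCFKO against NICD_TCFWT, and Cd52 from -0.4131 to 0.0625 and Lsp1 from -0.05936 to 0.2966 in the interaction.

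Counts of called genes moved more than single genes. Without 1 library, the counts higher and lower ranged from 1073 to 1946 and 873 to 1698 in NICD_TCFWT against NOTCHWT_TCFWT (1701 and 1562 with all), and from 564 to 1463 and 332 to 1225 in NICD_TCFKO against NICD_TCFWT (1161 and 825). They ranged from 1118 to 1993 and 1008 to 1854 in NOTCHWT_TCFKO against NOTCHWT_TCFWT (1738 and 1675), and from 861 to 1786 and 649 to 1516 in NICD_TCFKO against NOTCHWT_TCFKO (1650 and 1292). They ranged from 251 to 781 and 117 to 504 in NICD_TCFKO against NOTCHWT_TCFWT (642 and 368), and from 65 to 1097 and 96 to 968 in NOTCHWT_TCFKO against NICD_TCFWT (214 and 246). Of the 10 genes, 2 to 6 were higher in NICD_TCFKO against NICD_TCFWT, 1 to 4 against NOTCHWT_TCFKO, 3 to 7 against NOTCHWT_TCFWT, and 1 to 2 in the interaction.

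DESeq2 called 1468 genes lower in NICD_TCFKO against NICD_TCFWT, 1998 lower against NOTCHWT_TCFKO, 1160 higher and 865 lower against NOTCHWT_TCFWT, and 918 higher and 737 lower in NOTCHWT_TCFKO against NICD_TCFWT, with 1 of the 10 higher there. With only the groups compared, fewer libraries enter, and 724 genes were higher and 514 lower in NICD_TCFKO against NOTCHWT_TCFKO, with 1 of the 10 higher, and 360 higher and 178 lower against NOTCHWT_TCFWT. With the Y-linked covariate 606 genes were lower in the last comparison, and 422 higher and 380 lower in NOTCHWT_TCFKO against NICD_TCFWT. In the interaction 1 of the 10 was positive with no filter, in limma-voom and with the sheet covariate, and 0 with the Y-linked covariate.

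Replicate numbers did not pair the samples in all comparisons. Deviations of 18 same-numbered pairs correlated at -0.404 to 0.451, 6 of them over 0.1. In 6 of the 18, the library of the first-named group correlated best with its own number in the other group. These included replicates 1, 2 and 3 of NICD_TCFKO against NICD_TCFWT (r = 0.314, 0.1 and 0.451). With the replicate block, 132 genes were higher and 159 lower in NOTCHWT_TCFKO against NICD_TCFWT and 1 of the 10 was positive in the interaction. Lsp1 in NICD_TCFWT against NOTCHWT_TCFWT, Rag1 in NICD_TCFKO against NOTCHWT_TCFWT and Rag2 in the interaction missed the threshold with the block (adjusted p = 0.0643, 0.0656 and 0.0691). Depth limits Il7r and Ly86 in the libraries labelled NOTCHWT_TCFWT, where single libraries held 1 to 31 counts.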
